A study of Mus musculus with 9 samples.

Results

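The genes described are 39 members of the NF-kB and TNF signalling pathway: the cytokine Tnf, 3 receptors, 13 upstream kinases and adaptors, 5 NF-kB subunits, 6 I kappa B proteins, 7 ubiquitin-editing and other feedback genes, and 4 effector targets. They were listed by symbol, with earlier results of these data known, and all 39 are among the 22173 genes of the deposited tables. All 39 also passed the filter on low counts that left 12094 genes for testing. RNA was sequenced from wild-type primary mouse neutrophils of the bone marrow after 2 days inside a gelatin methacryloyl hydrogel, a crosslinked gelatin that can be cast at a chosen stiffness. The gels were low (1.5 kPa, which the submitters set as the control), middle (2.6 kPa) or high (5.7 kPa) in stiffness, and each was represented by 3 libraries. All groups received RPMI medium with 10% fetal bovine serum. The sources used here give neither the age and sex of the mice nor the purity of the neutrophils. They also do not state whether replicates came from separate animals or gels, so a p-value reflects the spread among libraries only, and that spread may be technical.

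NF-kB is a family of dimeric transcription factors, built from the proteins of Nfkb1, Nfkb2, Rela, Relb and Rel, that is held inactive in the cytoplasm by I kappa B proteins. Binding of TNF to its death-domain receptor, encoded by Tnfrsf1a, recruits TRAF and cIAP ubiquitin ligases and the kinase RIPK1. Their ubiquitin chains assemble the TAK1 and IKK kinase complexes. IKK marks I kappa B for degradation, and the freed dimers switch on cytokines, survival genes and their own inhibitors, among them I kappa B alpha and the deubiquitinase A20. In neutrophils the pathway is known for driving cytokine production and for delaying cell death.

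Libraries held 13.2 to 19.5 M counts and 14042 to 14914 detected genes. Replicate 1 of every group stood apart from replicates 2 and 3. The summed level of 12 neutrophil markers was 3501 to 4087 CPM (library-scaled counts, normalised by TMM) in the replicate 1 libraries and 14304 to 23427 in the other 6 libraries, and that of 11 macrophage and monocyte markers was 7288 to 8526 against 5505 to 8140. The B cell sum was 31.6 to 55.1 CPM in replicate 1 and 104 to 206 in the others. The T cell sum was 0.924 to 1.96 against 4.86 to 7.21, and the megakaryocyte sum 25.7 to 49.0 against 99.4 to 206. Sums of NK cell and of stroma and endothelium markers were also lower in replicate 1 without overlap. Those of dendritic cell, erythroid, and mast cell, basophil and eosinophil markers overlapped between replicate numbers. By stiffness the macrophage and monocyte sum was 8062 to 8526 CPM in low, 6409.6 to 7288 in middle and 5505 to 7702 in high, the neutrophil sum was 3501 to 23427, 4032 to 20177 and 4087 to 14356, and 5 dendritic cell markers summed to 18.7 to 27.9, 14.4 to 22.0 and 11.4 to 14.8. All genes of these lists had counts in at least 1 library, and the most abundant of them include S100a8 (977 to 5699 CPM) for neutrophils and Gpnmb (1165 to 5709 CPM) for macrophages. From low to middle to high, the neutrophil sum was 3501, 4032 and 4087 CPM in replicate 1, 23427, 17610.4 and 14356 in replicate 2, and 20483, 20177 and 14304 in replicate 3, so it was higher in high than in low in replicate 1 and lower in the other numbers. The macrophage and monocyte sum was lower in high than in low in every number (7702 against 8526, 5809.7 against 8140.3 and 5505 against 8062), and its ranges overlapped between replicate numbers. Markers within that list went both ways. Gpnmb was lower in high than in low in every number (4609 against 5709, 1411 against 3354 and 1165 against 3420 CPM). Csf1r was higher in every number (778 against 616, 1712 against 1035 and 1606 against 992), as was Adgre1 (780 against 605, 739 against 537 and 606 against 487). The part of these sums in the results below was not tested. In bulk RNA, fewer cells of a type and less RNA per cell cannot be told apart.

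High was compared with low gels by the edgeR quasi-likelihood test (Benjamini-Hochberg adjusted p under 0.05, n = 3 per group). In the main fit as planned, without a replicate term, 0 of the 39 members passed, against 0.0910% of all tested genes. Once the replicate number was fitted as a block, 15 of the 39 members rose and 0 fell between high and low gels. Across all tested genes the fit with the block called 6.72% higher and 8.73% lower. The median log2 fold change of the members was 0.40, against -0.0026 over all tested genes, and 34 of the 39 estimates were above 0. No block was planned, since the labels do not say what a replicate number shares. At an unadjusted p under 0.05 without the block there were 14 of 39 members, against 7.72% of all genes, and DESeq2 without the block called 5 members (Nfkb1, Tnfaip2, Fas, Sod2 and Ptgs2), against 2.75% of all genes. Below, "rose" refers to the fit with the block, and values after a gene name are log2 fold changes of high over low ± standard error from that fit. Per-library CPM are given in the order of replicates 1, 2 and 3.

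Of the 13 upstream kinases and adaptors 1 rose (median 0.09), which is near the 6.72% of all tested genes called higher in that fit. Of the 13 feedback targets, the I kappa B proteins and feedback genes together, 5 rose (median 0.51). All 4 effector targets rose (median 0.92), as did the ligand, 2 of 3 receptors (median 0.40) and 2 of 5 subunits (median 0.70). The difference between role groups was not tested, since genes are not replicates. The plot of fold changes by role shows this layout for the middle and the high gel.

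**Figure D1:**
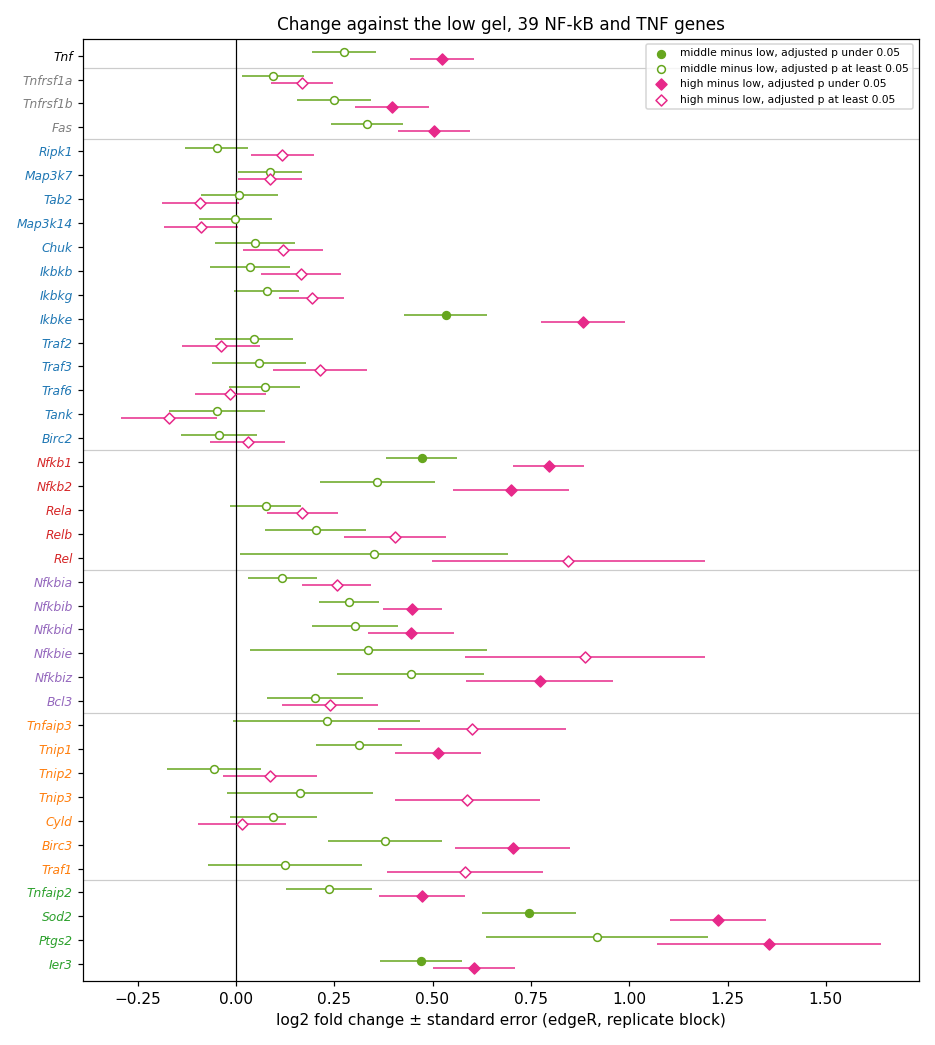
Log2 fold change ± standard error of each of the 39 genes in middle (circles) and high (diamonds) gels over low gels, from edgeR with the replicate number as a block. Filled symbols passed an adjusted p of 0.05, genes are grouped by role from the ligand at the top to the effector targets at the bottom, and the upstream kinases and adaptors lie near 0 apart from Ikbke.

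Tnf, the ligand, was at 512, 394 and 385 CPM in low, 619, 473 and 470.2 in middle and 784, 550.3 and 533 in high. The high libraries did not overlap the low ones, replicate 1 was the highest library of each group, and the level stepped up from low to middle to high within every replicate number. Tnf rose by 0.52 ± 0.08 (edgeR adjusted p = 0.00195). Of its receptors, Tnfrsf1b, which binds TNF and signals without a death domain, had levels of 1794, 1324 and 1274 CPM for low, 2166, 1523 and 1540.2 for middle and 2155, 1772 and 1806 for high. Low replicate 1 lay close to the high libraries of replicates 2 and 3, so the groups overlapped. Tnfrsf1b rose by 0.40 ± 0.09 (edgeR adjusted p = 0.0159). Tnfrsf1a, the death-domain receptor for TNF, was at 119, 254 and 244 CPM in low, 136, 256 and 259 in middle and 134, 272 and 285 in high. It was lower in replicate 1 than in the other libraries of every group, and its estimate of 0.17 ± 0.08 did not pass (edgeR adjusted p = 0.172). Fas, the death receptor for Fas ligand, was measured at 183, 159 and 154 CPM for low, 229, 191 and 206 for middle and 224, 231 and 247 for high. All 3 high libraries exceeded all 3 low ones, and Fas rose by 0.50 ± 0.09 (edgeR adjusted p = 0.00467).

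Ikbke, an IKK-related kinase of the interferon and NF-kB pathways, was the only upstream member that rose in this fit (0.88 ± 0.11, edgeR adjusted p = 0.000527). Its levels were 216, 440.2 and 449 CPM for low, 295, 653 and 676 for middle and 319, 853 and 973 for high. High replicate 1 lay below low replicates 2 and 3, so the groups overlapped, while within each replicate number the level was higher at both steps of stiffness. The kinases of the core cascade had small estimates: 0.09 ± 0.08 for Map3k7 (TAK1), 0.12 ± 0.10 for Chuk (IKK alpha), 0.17 ± 0.10 for Ikbkb (IKK beta) and -0.09 ± 0.09 for Map3k14 (NIK, the kinase of the non-canonical pathway). Ikbkg, the regulatory subunit of IKK, had 0.19 ± 0.08, the receptor-bound kinase Ripk1 had 0.12 ± 0.08, and the TAK1-binding adaptor Tab2 had -0.09 ± 0.10. Among the TRAF and cIAP adaptors the estimates were -0.04 ± 0.10 for Traf2, 0.21 ± 0.12 for Traf3, -0.01 ± 0.09 for Traf6 and 0.03 ± 0.10 for Birc2 (cIAP1), and Tank, a TRAF-binding scaffold of the IKK-related kinases, had -0.17 ± 0.12. None of these 12 passed the test.

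Nfkb1, which encodes p105 and its product p50, was at 147, 134 and 134 CPM in low, 194, 184 and 197 in middle and 217, 253 and 249.5 in high. The libraries of the high gels, replicate 1 included, were all above those of the low gels. It rose by 0.80 ± 0.09 (edgeR adjusted p = 0.000386). Nfkb2, the gene of p100 and p52, was at 361, 208 and 211 CPM in low, 378, 304 and 300.3 in middle and 397, 418 and 409 in high. Its low replicate 1 was far above the other low libraries but still below every high library, and it rose by 0.70 ± 0.15 (edgeR adjusted p = 0.0127). Rela, the transactivating subunit p65, showed 239, 215 and 238 CPM for low, 243, 259 and 226 for middle and 257, 244 and 276 for high. Its high and low libraries did not overlap, yet the estimate of 0.17 ± 0.09 did not pass (edgeR adjusted p = 0.235). Relb, the subunit of the non-canonical pathway, had 0.40 ± 0.13 and Rel, the c-Rel subunit of myeloid and lymphoid cells, 0.85 ± 0.35, with edgeR adjusted p of 0.0591 and 0.177. For Rel the libraries read 182, 160.3 and 184 CPM in low, 176, 274 and 247 in middle and 154, 418 and 461 in high, so that replicates 2 and 3 more than doubled in level while replicate 1 was lowest in the high gel.

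Of the I kappa B proteins, Nfkbib (I kappa B beta) rose by 0.45 ± 0.08, Nfkbid (I kappa B NS, a nuclear member) by 0.44 ± 0.11 and Nfkbiz (I kappa B zeta, a nuclear co-activator) by 0.77 ± 0.19, with edgeR adjusted p of 0.00296, 0.0196 and 0.0273. Nfkbib was at 136, 105 and 107 CPM in low, 163, 132 and 129.6 in middle and 179, 141 and 154 in high, without overlap between high and low. Nfkbid was at 97.7, 178 and 186 CPM in low, 95.7, 263 and 241 in middle and 108, 277 and 273 in high, and its replicate 1 libraries were the lowest of every group. Nfkbiz was at 727, 411 and 442 CPM in low, 686, 731 and 686 in middle and 835, 819 and 991 in high, with low replicate 1 the highest of its group and no overlap between high and low. Nfkbia, the I kappa B alpha that resets the canonical pathway, was at 1105, 711 and 705 CPM in low, 1087, 804 and 810.4 in middle and 1215, 887 and 878 in high, with replicate 1 the highest of every group. Its estimate of 0.26 ± 0.09 did not pass (edgeR adjusted p = 0.0708). It had the highest mean level per length of the 39 members, 577 FPKM (the authors' values per length and depth) over the 9 libraries, ahead of Ier3 with 406 and Tnfrsf1b with 346, whereas Tnip3 had the lowest with 5.14. Nfkbie (I kappa B epsilon) had 0.89 ± 0.30 and Bcl3, a nuclear partner of p50 and p52, 0.24 ± 0.12; neither passed. Nfkbie was at 65.9, 60.5 and 67.6 CPM in low, 66.1, 87.7 and 98.3 in middle and 60.7, 161 and 163 in high, the same layout as Rel, with replicate 1 lowest and the other numbers more than doubled in the high gel.

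Among the feedback genes, Tnip1, an A20-binding inhibitor, rose by 0.51 ± 0.11 and Birc3 (cIAP2) by 0.70 ± 0.15, with edgeR adjusted p of 0.0101 and 0.0113. Tnip1 was at 439, 413 and 463 CPM in low, 456, 606 and 586 in middle and 517, 632 and 751 in high, without overlap between high and low. Birc3 was at 289.9, 341 and 349 CPM in low, 327, 485 and 488 in middle and 321, 648 and 707 in high, and its high replicate 1 lay below low replicates 2 and 3. Tnfaip3, which encodes A20, had 0.60 ± 0.24 (edgeR adjusted p = 0.144). Its libraries were at 1009, 476 and 448 CPM in low, 784, 669 and 706 in middle and 903, 947 and 909 in high, so the low gel of replicate 1 was the highest of all 9. The remaining estimates were 0.09 ± 0.12 for Tnip2 and 0.59 ± 0.18 for Tnip3, both A20-binding proteins, 0.02 ± 0.11 for the deubiquitinase Cyld, and 0.58 ± 0.20 for the adaptor Traf1. These 5 did not pass.

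Sod2, the mitochondrial superoxide dismutase, had the smallest adjusted p of the 39 (rise of 1.22 ± 0.12, edgeR adjusted p = 0.000161) and was at 668, 482 and 487 CPM in low, 1066, 822 and 846 in middle and 1181, 1280.5 and 1306 in high. Ptgs2, the inducible cyclooxygenase COX-2, had the largest fold change (1.35 ± 0.28, edgeR adjusted p = 0.0276), with 728, 347 and 354 CPM in low, 817, 892 and 893 in middle and 1086, 1132 and 1299.7 in high. For both genes every high library was above every low one, and low replicate 1 was above the other low libraries. Ier3, an immediate early survival gene, was at 518, 252 and 268 CPM in low, 583, 409 and 387 in middle and 762, 404 and 401 in high and rose by 0.61 ± 0.10 (edgeR adjusted p = 0.00337), although low replicate 1 exceeded the high libraries of replicates 2 and 3. Tnfaip2, a TNF-induced gene, was at 961, 818 and 761 CPM in low, 1069, 927 and 994 in middle and 1072, 1254 and 1186 in high, with no overlap between high and low, and rose by 0.47 ± 0.11 (edgeR adjusted p = 0.0151).

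The levels of 11 of the 39 members (28.2%) were higher in all 3 high libraries than in all 3 low ones, against 5.90% of all tested genes, and those of 0 were lower in all 3, against 6.76%. The 11 were Tnf, Fas, Nfkb1, Nfkb2, Rela, Nfkbib, Nfkbiz, Tnip1, Tnfaip2, Sod2 and Ptgs2. Within replicate numbers, 20 members (51.3%) were higher in high than in low in all 3 numbers, against 23.7% of all genes, and 1 (Tab2) was lower in all 3, against 24.8%. The call of 15 members depended on single libraries. It was 25 without low replicate 1, 8 without low replicate 2 and 7 without low replicate 3. It was also 7 without high replicate 2 or without high replicate 3. The genes called in the whole series moved too, from 1869 with all libraries to 2469, 1049, 808, 605 and 914 in the same order. Tnf, Fas, Ikbke, Nfkb1, Nfkbib, Sod2 and Ier3, 7 members in all, passed in each of the 9 fits with the block that left out 1 library. The other 8 (Tnfrsf1b, Nfkb2, Nfkbid, Nfkbiz, Tnip1, Birc3, Tnfaip2 and Ptgs2) did not pass in at least 1 of them. Without the filter on low counts the fit with the block still called 15, with Relb and Tnip3 in place of Nfkbiz and Ptgs2. Leaving a whole replicate number out of all groups gave 26 members without number 1 and 3 (Nfkb1, Ikbke and Sod2) without number 2 or without number 3. In the whole series these fits called 3183, 262 and 435 genes without numbers 1, 2 and 3.

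**Figure D2:**
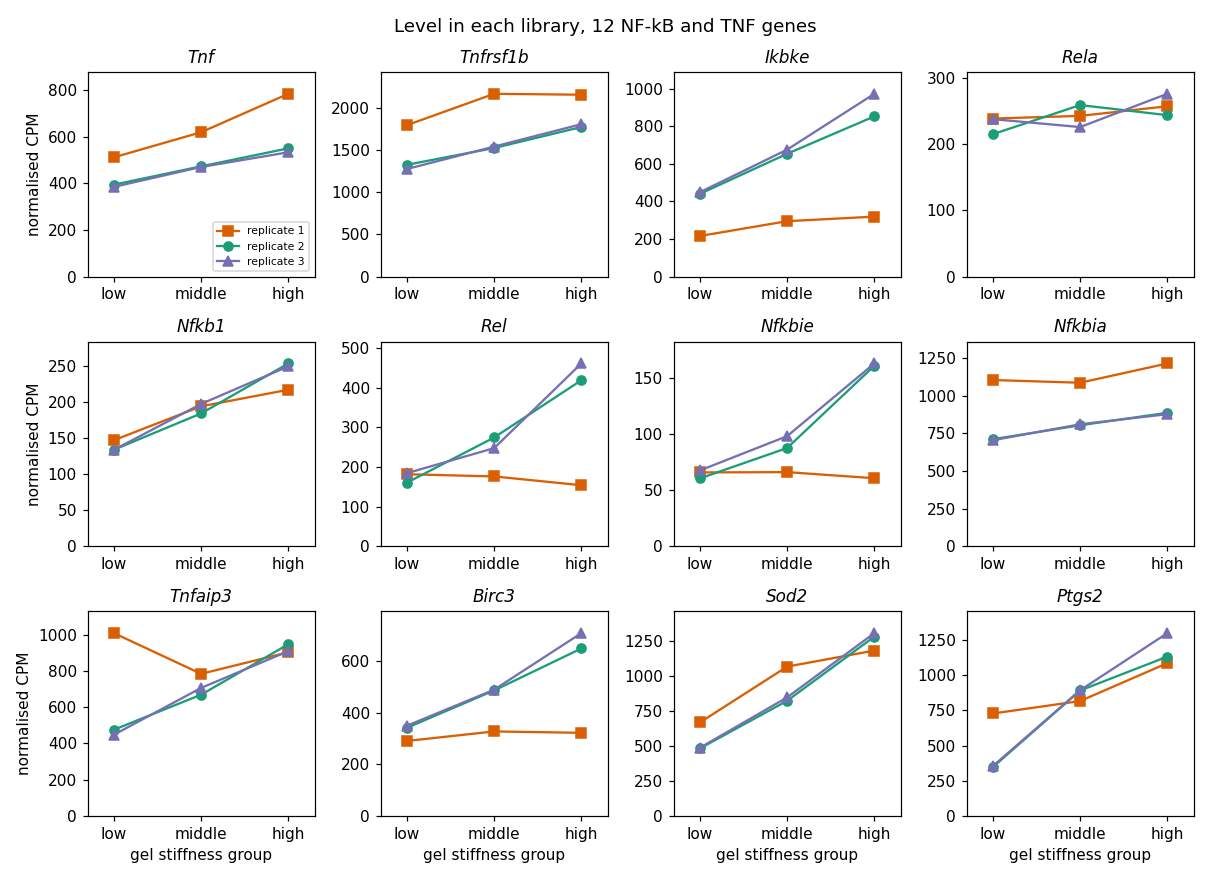
Normalised CPM (vertical axes from 0) of 12 of the genes in each of the 9 libraries, with the gel stiffness group on the horizontal axis and 1 line for each replicate number. Tnf and Nfkb1 climb in all 3 lines, whereas Rel, Nfkbie and Tnfaip3 climb in replicates 2 and 3 but not in replicate 1.

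Between middle and low gels 4 members rose and 0 fell with the block, against 0.810% higher and 1.03% lower of all tested genes, with a median of 0.20 over the members. Nfkb1 rose by 0.47 ± 0.09, Ikbke by 0.53 ± 0.11, Sod2 by 0.75 ± 0.12 and Ier3 by 0.47 ± 0.10 on the log2 scale, with edgeR adjusted p of 0.0228, 0.0284, 0.0121 and 0.0454. In high against low the values of the same genes were 0.80, 0.88, 1.22 and 0.61; both comparisons share the low libraries. Without the block edgeR called 0 members and 0% of all genes, 4 members had an unadjusted p under 0.05 (2.63% of all genes), and DESeq2 called 2 (0.397% of all genes). The count of 4 became 0 when low replicate 2, low replicate 3, middle replicate 2 or middle replicate 3 was left out, 1 without middle replicate 1, 2 without high replicate 2, 7 without high replicate 1 and 14 without low replicate 1.

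Levels stepped up from low to middle to high in all 3 replicate numbers for 9 members (Tnf, Ikbke, Nfkb1, Nfkb2, Nfkbib, Tnip1, Tnfaip2, Sod2 and Ptgs2), which is 23.1% against 5.10% of all genes. No member (0 of 39) stepped down in all 3, against 5.61% of all genes.

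For high against middle edgeR called 0 members with the block, against 0.0165% of all genes higher, where 7 had an unadjusted p under 0.05 (10.5% of all genes), and 0 without it, against 0% of all genes. Without the block 2 members had an unadjusted p under 0.05 in that comparison (1.48% of all genes), and DESeq2 called 0 (0.0165% of all genes). Without high replicate 1 the fit with the block called 9 members for high against middle, and without low replicate 1 it called 6. A test for any difference among the 3 groups called 12 members with the block, against 9.0% of all genes, and 0 without it, where 5 had an unadjusted p under 0.05 (4.56% of all genes) and DESeq2 called 4 (1.63%). That count of 12 ranged from 4 (without low replicate 2 or without low replicate 3) to 24 (without low replicate 1). It was 6 without high replicate 2 or without high replicate 3, 7 without middle replicate 3, and 8 without middle replicate 2.

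Replicate numbers differed in how the members followed stiffness. The median difference of high minus low, in log2 CPM, was 0.11 in replicate 1, 0.48 in replicate 2 and 0.50 in replicate 3. It was above 0 for 20, 37 and 36 of the 39 members (51.3%, 94.9% and 92.3%), against 49.4%, 49.8% and 49.4% of all tested genes, so the share in replicate 1 was near that of all genes. For the feedback targets the medians were -0.05, 0.64 and 0.70, for the subunits 0.11, 0.92 and 0.90, and for the effector targets 0.57, 1.05 and 1.03. The upstream kinases and adaptors had -0.19, 0.18 and 0.12, and 10 of these 13 genes were lower in high than in low in replicate 1. Thus the small upstream median with all libraries joined negative values in replicate 1 to positive values in the others.

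**Figure D3:**
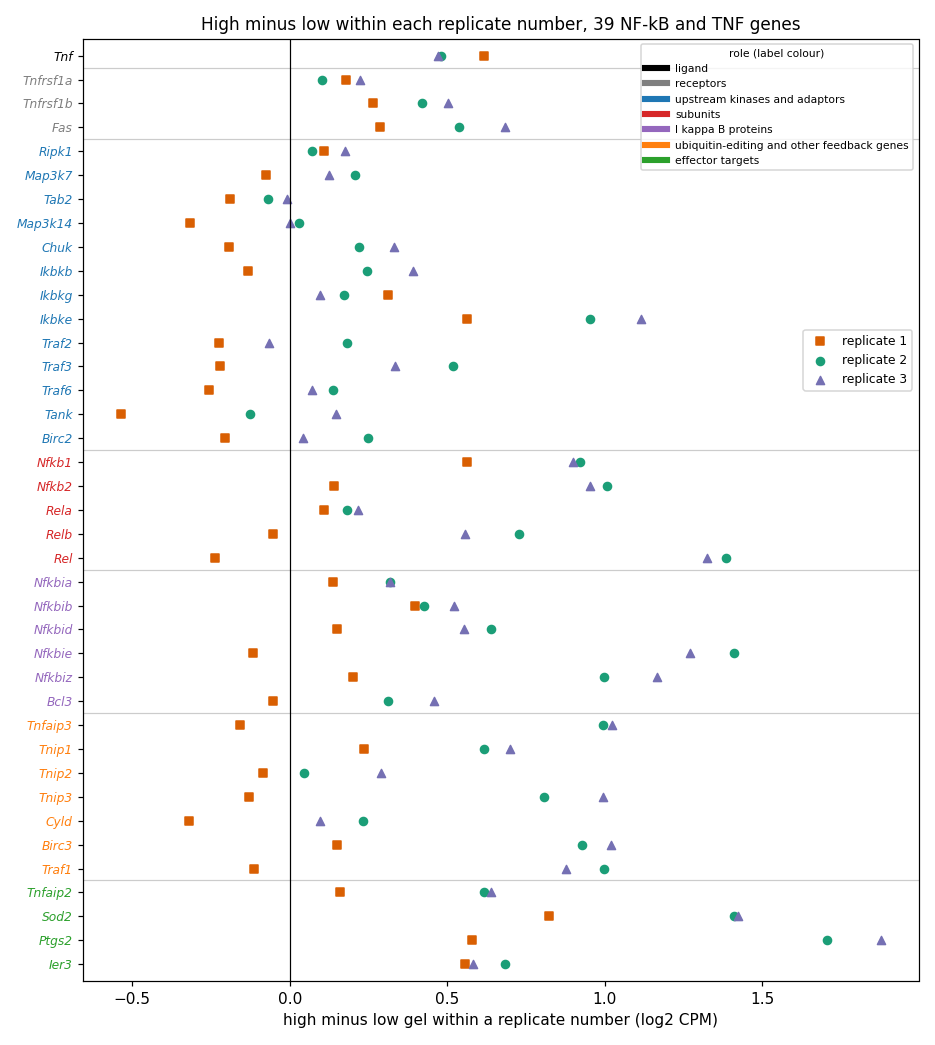
Difference of the high and the low gel in log2 CPM within replicates 1 (squares), 2 (circles) and 3 (triangles) for the 39 genes, ordered and coloured by role. Points of replicates 2 and 3 lie close together, and those of replicate 1 lie to their left for most subunits, I kappa B proteins, feedback genes and effector targets, while Tnf has its largest value in replicate 1.

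The difference itself was tested as an interaction, high over low in replicate 1 minus the same in replicates 2 and 3. That fit takes its spread from replicates 2 and 3 and assumes that replicate 1 varies like them. Replicate 1 was already known to stand apart when this test was chosen, and the p-values do not allow for that choice. It called 13 members lower (33.3%) and 0 higher in replicate 1, against 5.84% and 2.52% of all tested genes, with a median of -0.45 against -0.01. The 13 were 3 subunits (Nfkb2, Relb and Rel), 2 I kappa B proteins (Nfkbie and Nfkbiz), 4 feedback genes (Tnfaip3, Tnip3, Birc3 and Traf1), 3 effector targets (Tnfaip2, Sod2 and Ptgs2) and 1 upstream adaptor (Traf3). The largest was Rel with -1.59 ± 0.16 (edgeR adjusted p = 0.000129), whose high minus low differences were -0.24, 1.38 and 1.32 log2 CPM in replicates 1, 2 and 3. Nfkbie followed with -1.46 ± 0.15 (edgeR adjusted p = 0.000183) and differences of -0.12, 1.41 and 1.27. Tnfaip3 had -1.17 ± 0.13 (edgeR adjusted p = 0.000195) and -0.16, 0.99 and 1.02. For Sod2 the interaction was smaller, -0.59 ± 0.12 (edgeR adjusted p = 0.00978), and all 3 differences were above 0 (0.82, 1.41 and 1.42). Tnf and the 3 receptors did not pass, and the estimate for Tnf was 0.14 ± 0.12 (edgeR adjusted p = 0.508), with differences of 0.62, 0.48 and 0.47. Nfkb1 did not pass either (-0.35 ± 0.12, edgeR adjusted p = 0.107). The neutrophil marker sum split by replicate number as well, from 3501 to 4087 CPM between low and high in replicate 1, from 23427 to 14356 in replicate 2 and from 20483 to 14304 in replicate 3, and its part in these differences was not tested.

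Within replicates 2 and 3 alone (n = 2 per group), from the same model, 26 of the 39 members (66.7%) rose from low to high and 0 fell. The shares of all tested genes were 12.5% and 13.9%, and the median of the members was 0.48. The split was made with replicate 1 already known to stand apart, and the p-values do not allow for that choice. The 26 members included 11 of 13 feedback targets (median 0.66), 4 of 5 subunits (median 0.91) and 4 of 13 upstream members (median 0.14). These upstream members were Ikbke, Traf3, Ikbkb and Chuk. Rel rose by 1.35 ± 0.09 in these libraries (edgeR adjusted p = 7.53e-07), Nfkbie by 1.34 ± 0.09 (6.00e-07), Tnfaip3 by 1.01 ± 0.07 (1.31e-06) and Nfkbia by 0.32 ± 0.07 (0.00433). Among the kinases, Ikbkb rose by 0.32 ± 0.08 and Chuk by 0.27 ± 0.08, with edgeR adjusted p of 0.00844 and 0.0267. The feedback targets that did not pass were Tnip2 (0.17 ± 0.13) and Cyld (0.16 ± 0.08), and among the subunits Rela (0.20 ± 0.09). In these libraries the neutrophil marker sum was lower in high than in low (14356 against 23427 CPM in replicate 2, 14304 against 20483 in replicate 3). The macrophage and monocyte sum was lower as well (5809.7 against 8140.3 and 5505 against 8062). Of its markers Gpnmb was lower in high, whereas Csf1r and Adgre1 were higher. The part of these markers in these values was not tested.

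Across stiffness, replicate 1 differed from the mean of replicates 2 and 3 in 25 members, 13 higher and 12 lower. These shares (33.3% and 30.8%) were near those of all tested genes (32.9% and 32.5%). The widest differences by replicate number were those of Ikbkg and Ikbke. Ikbkg was higher in replicate 1 by 1.29 ± 0.07 and Traf2 by 1.09 ± 0.08, while Ikbke was lower (-1.24 ± 0.10), with edgeR adjusted p of 6.77e-08, 6.65e-07 and 8.38e-07. Nfkbid (-1.21 ± 0.10), Tnfrsf1a (-1.01 ± 0.07), Bcl3 (-0.996 ± 0.11) and Cyld (-0.80 ± 0.10) were also lower in replicate 1, and Ier3 (0.83 ± 0.09) and Traf1 (0.71 ± 0.17) were higher. Levels of Nfkb1 (-0.02 ± 0.08) and Rela (0.02 ± 0.08) did not pass between replicate numbers (edgeR adjusted p = 0.872 and 0.827).

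**Figure D4:**
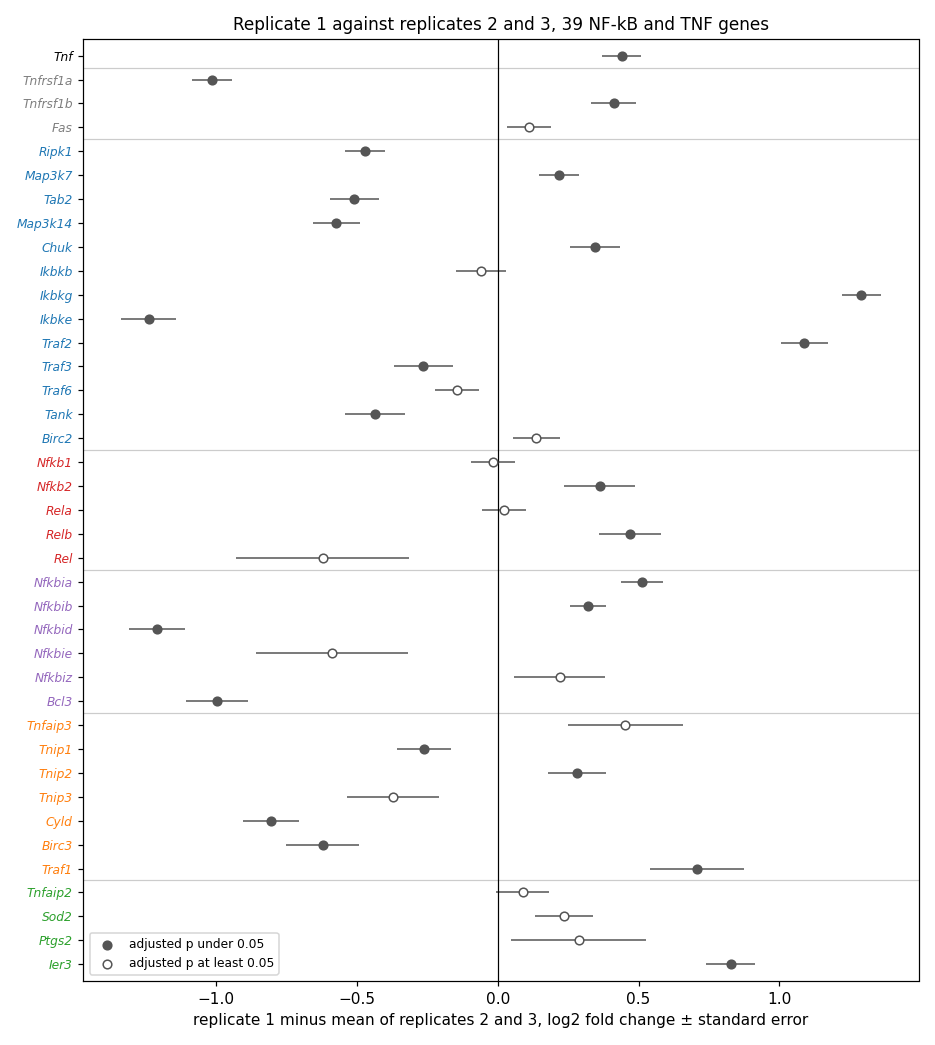
Log2 fold change ± standard error of replicate 1 over the mean of replicates 2 and 3, all stiffness groups together, for the 39 genes (edgeR, with the group as a term). Filled points passed an adjusted p of 0.05; 13 lie to the right of 0 and 12 to the left, with Ikbkg and Traf2 at the right edge and Ikbke and Nfkbid at the left.

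The promoters of the members were searched for the kappa B consensus, the 10-base motif to which NF-kB dimers bind. Both strands were searched, and overlapping matches were counted. The windows run from 250 bases before to 50 after each RefSeq start (GRCm38.p6, whereas the counts were made on GRCm39). Of the 39 members 35 have a window, and 15 of these (42.9%) held at least 1 match, against 5.14% of the 27025 genes of the table. By window the shares were 18 of 49 for members and 4.51% of the 32851 windows in all. Members with a match were 3 of 12 upstream genes (Map3k7, Tank and Traf3), 2 of 3 subunits (Nfkb2 and Rel), 4 of 5 I kappa B proteins (Nfkbia, Nfkbid, Nfkbie and Bcl3), 4 of 7 feedback genes (Tnfaip3, Tnip1, Tnip3 and Cyld) and 2 of 4 effector targets (Sod2 and Ier3), with 0 among the ligand and the 3 receptors. Nfkb1, Relb, Ikbkb and Nfkbiz were not searched here. A match is a description of the sequence only, and its absence says nothing about binding. The members include feedback and effector targets of NF-kB, so their share of matches is not independent of how the list was chosen. It does not bear on stiffness.

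The sequences below are the 130 bases before the start, 5′ to 3′ on the strand of the gene, for all 12 members with a match there. Letters in capitals are the kappa B matches. Nfkbia, Rel, Nfkbie, Tnfaip3 and Tnip3 are shown because they rose in replicates 2 and 3 but did not pass with all libraries. Traf3 is shown as an upstream gene with that layout, and Map3k7 and Tank as upstream genes that passed in neither. For Tank the sequence is that of the first of its starts with a match, and its earlier starts held none. Nfkb2 (the first of 3 starts), Tnip1, Sod2 and Ier3 are shown because they rose with all libraries.
Nfkbia (chr12:55492648-55492777, - strand): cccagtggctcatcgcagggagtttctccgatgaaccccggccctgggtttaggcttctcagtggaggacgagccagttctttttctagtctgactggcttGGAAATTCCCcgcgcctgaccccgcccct
Rel (chr11:23770970-23771099, - strand): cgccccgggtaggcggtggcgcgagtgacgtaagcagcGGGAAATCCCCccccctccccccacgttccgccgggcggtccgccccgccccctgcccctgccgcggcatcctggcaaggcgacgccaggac
Nfkbie (chr17:45555570-45555699, + strand): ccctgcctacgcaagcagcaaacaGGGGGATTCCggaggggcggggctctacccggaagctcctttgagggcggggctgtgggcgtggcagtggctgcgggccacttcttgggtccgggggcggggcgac
Tnfaip3 (chr10:19015411-19015540, - strand): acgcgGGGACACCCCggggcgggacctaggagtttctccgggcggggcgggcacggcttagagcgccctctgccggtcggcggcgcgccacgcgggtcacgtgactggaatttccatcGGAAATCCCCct
Tnip3 (chr6:65590268-65590397, + strand): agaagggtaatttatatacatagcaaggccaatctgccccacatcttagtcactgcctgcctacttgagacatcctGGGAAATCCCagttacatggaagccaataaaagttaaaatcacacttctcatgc
Traf3 (chr12:111166240-111166369, + strand): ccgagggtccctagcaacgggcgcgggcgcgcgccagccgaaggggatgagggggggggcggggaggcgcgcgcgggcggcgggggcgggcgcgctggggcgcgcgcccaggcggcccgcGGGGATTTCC
Map3k7 (chr4:31963977-31964106, + strand): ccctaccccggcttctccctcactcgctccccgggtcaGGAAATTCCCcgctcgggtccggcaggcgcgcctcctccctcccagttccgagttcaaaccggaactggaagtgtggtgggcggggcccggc
Tank (chr2:61592967-61593096, + strand): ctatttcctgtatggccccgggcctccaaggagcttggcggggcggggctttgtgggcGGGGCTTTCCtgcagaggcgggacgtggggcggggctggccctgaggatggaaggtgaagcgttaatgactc
Nfkb2 (chr19:46304607-46304736, + strand): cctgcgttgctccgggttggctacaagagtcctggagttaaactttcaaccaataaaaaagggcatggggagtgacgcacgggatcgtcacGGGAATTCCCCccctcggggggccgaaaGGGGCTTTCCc
Tnip1 (chr11:54962941-54963070, - strand): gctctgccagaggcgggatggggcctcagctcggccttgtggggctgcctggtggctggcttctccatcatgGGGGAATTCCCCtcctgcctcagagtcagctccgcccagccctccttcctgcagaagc
Sod2 (chr17:13007709-13007838, + strand): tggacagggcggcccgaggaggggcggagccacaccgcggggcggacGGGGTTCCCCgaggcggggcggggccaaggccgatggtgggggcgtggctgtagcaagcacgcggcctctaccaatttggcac
Ier3 (chr17:35821583-35821712, + strand): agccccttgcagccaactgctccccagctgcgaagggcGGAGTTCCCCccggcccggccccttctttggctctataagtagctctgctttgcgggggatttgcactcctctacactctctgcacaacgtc
The match of Nfkbia began 29 bases before the start, that of Traf3 10 bases before it, and that of Sod2 83 bases before it. In Rel, Nfkb2 and Tnip1 several matches overlapped within 1 run of capitals, and Nfkb2 had a further, separate match 11 bases before the start. Tnfaip3 had 2 separate matches, 125 and 12 bases before the start.

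Other genes of the pathway, from lists that hold none of the 39 members, were taken from the same fit of high over low with the block. The shares of all tested genes to read these counts against are 6.72% higher and 8.73% lower. Of 28 tested TNF superfamily ligands and receptors 5 rose and 2 fell, with a median of -0.15; the 2 that fell are near the share of all genes. Tnfrsf8 (CD30) rose by 0.58 ± 0.08 and the lymphotoxin subunit Ltb by 0.69 ± 0.12, whereas Tnfrsf11a (RANK) fell (-0.60 ± 0.13), as did Tnfrsf13c (-1.15 ± 0.26), the BAFF receptor of B cells. The sum of 5 B cell markers was 55.1 to 206 CPM in low and 36.9 to 159.9 in high, and its part in the value of Tnfrsf13c was not tested. Of 24 receptor complex partners 1 rose and 3 fell (median -0.06), which is near the shares of all tested genes. The linear-ubiquitin ligase subunit Rnf31 fell (-0.43 ± 0.09) and Otulin, which removes linear ubiquitin, rose (0.47 ± 0.10). The ubiquitin-binding adaptor Optn (-0.49 ± 0.08) and the necroptosis effector Mlkl (-0.58 ± 0.12) also fell.

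Of 14 adaptors of Toll-like and interleukin-1 receptors 2 rose and 0 fell (median 0.05), against the same 6.72% and 8.73% of all tested genes. They were Irak3, an inhibitory member of the IRAK family, with 1.16 ± 0.14, and the TRIF-related adaptor Ticam2 with 0.54 ± 0.10. Of 7 genes of the CARD9-BCL10-MALT1 route 2 rose and 0 fell (median 0.13), Syk by 0.50 ± 0.10 and Bcl10 by 0.38 ± 0.09. Among 37 other NF-kB target genes 15 rose and 3 fell (median 0.60), against 6.72% and 8.73% of all genes, and the 3 that fell are near that share. In the interaction 19 of these 37 were lower and 0 higher in replicate 1, against 5.84% and 2.52% of all genes. That list is known from earlier results of these data and is not independent of them. The neutrophil chemokines Cxcl1 and Cxcl3 had differences of 2.04, 2.10 and 2.51 and of 1.98, 1.42 and 2.03 log2 CPM in replicates 1, 2 and 3, and the urokinase gene Plau, which fell (-1.09 ± 0.11), had -1.06, -0.95 and -1.29. The acute phase gene Saa3 rose by 1.82 ± 0.18. For these 4 targets the interaction did not pass, with edgeR adjusted p of 0.393, 0.596, 0.663 and 0.956. They were named for their small adjusted p with the block, a choice that disfavours genes whose change differs by replicate number. They therefore do not stand for the list.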

How the data were processed

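Each deposited file holds the raw counts per gene of 1 library, the authors' FPKM and the exonic size of each gene, a unit of another kind in bases. The authors used HTSeq 0.6.1, HISAT2 2.0.1, cutadapt 1.9.1 and an unnumbered version of DESeq2 with build GRCm39, per the submitters' processing notes. Settings, including the strand used in counting, are not given. Deposited FPKM differed from values recomputed from counts and sizes by at most 0.005 and served only to compare levels between genes. Depth is given in the report, and counting intervals were not needed.

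Counts were tested with edgeR 4.0.16 (R 4.3.3; filterByExpr, TMM, robust quasi-likelihood fits over all 9 libraries, two-sided, Benjamini-Hochberg adjustment over 12094 genes at 0.05), without a replicate term, with the replicate number as a block, and with a replicate 1 by group interaction; the scripts were tested on simulated data. Standard errors are absolute log2 fold changes over the square root of F. Differences within a replicate number use log2 CPM with a prior count of 2. Plots used Python 3.11.15 and matplotlib 3.10.9. The labels number the replicates without saying what a number shares. After removal of group means, the 9 same-number pairs of libraries correlated at 0.595 to 0.856, which met the condition (every pair over 0.1) for giving blocked values, but pairs of number 2 with 3 also correlated, at 0.552 to 0.698, and pairs with number 1 at -0.777 to -0.65. The numbers therefore mainly separate number 1 from the others. The common biological coefficient of variation was 0.337 without and 0.115 with the block.

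Members that passed for high against low in either fit, Tnf, the receptors and Rela are given with every library, with Rel, Nfkbia, Nfkbie and Tnfaip3 added after their values were seen. Other pathway lists name up to 4 members with the smallest adjusted p. Members, lists and tests were chosen with earlier results of these data known. Alternatives were DESeq2 1.42.0, RLE size factors, no filter on low counts, and fits without single libraries or numbers.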

Additional observations from a re-analysis of the deposited data

Results flagged for a closer look

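For 13 members the change from low to high gels in replicate 1 differed from that in replicates 2 and 3, by the test of the difference itself (edgeR interaction, Benjamini-Hochberg adjusted p under 0.05). The values below are log2 differences, and each is negative, the change being smaller or opposite in replicate 1. The change within replicate 1 has no replication of its own. The test was chosen with replicate 1 already known to stand apart, and its p-values do not allow for that. Among the subunits the difference was -1.59 for Rel, -0.84 for Nfkb2 and -0.69 for Relb. Of the I kappa B proteins, Nfkbie had -1.46 and Nfkbiz -0.89. The feedback genes had -1.17 for Tnfaip3, -1.05 for Traf1, -1.03 for Tnip3 and -0.83 for Birc3. The effector targets had -1.22 for Ptgs2, -0.59 for Sod2 and -0.47 for Tnfaip2, and the upstream adaptor Traf3 had -0.65. Of the 13, Rel, Nfkbie, Tnfaip3, Traf1, Tnip3, Relb and Traf3 were lower in the high than in the low gel in replicate 1, and Nfkbiz, Nfkb2, Birc3, Ptgs2, Sod2 and Tnfaip2 were higher there as in replicates 2 and 3, by less.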

How the results depend on the processing

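With the replicate block, edgeR called 15 members for high against low, 4 for middle against low and 12 for any difference, against 0 each without it. The fit without the block was the one planned as the main fit. DESeq2 without the block called 5, 2 and 4, and with it 20, 4, 17 and, for high against middle, 1. Over the fits that leave out 1 library each, with and without the block, the counts were 0 to 25 for high against low, 0 to 14 for middle against low, 0 to 9 for high against middle and 0 to 24 for any difference; those without the block gave at most 2 for high against low. With number 1 left out of all groups the fit with the block called 26, 19, 13 and 25 in that order. With number 2 left out they were 3 for high against low and 1 for any difference, and with number 3 left out 3 and 2. For high against low, genes called in the whole series were 3183, 262 and 435 without numbers 1, 2 and 3. Without the block, RLE size factors and no filter on low counts each gave 0 in all 4 comparisons. With the block, both chosen after seeing the data, RLE size factors gave 16, 4, 0 and 12, and no filter gave 15, 4, 0 and 13. The count for replicate 1 against 2 and 3 (25) was 20 to 28, and that of the interaction (13) was 10 to 18, over all alternatives run. Of those 13, Tnfaip2 did not pass with RLE size factors or without low replicate 2, low replicate 3, middle replicate 2 or middle replicate 3, and Sod2 and Traf3 did not pass without low replicate 2. The interaction could not be fitted without low or high replicate 1. No estimate changed sign where it was called. All 39 members passed the count filter; how far depth limits the calls was not tested.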
